A study of Mus musculus with 6 samples.

Results

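The B7 family ligands are surface proteins through which antigen-presenting cells raise or lower the response of T cells. The 8 genes named were *Cd80*, *Cd86*, *Icosl*, *Cd274*, *Pdcd1lg2*, *Cd276*, *Vtcn1* and *Hhla2*, and members were chosen by symbol alone, with no measured value in the rule. Of the 8, 7 had an entry among the 39179 genes counted, and no entry matched *Hhla2*. RNA was measured in 3 libraries of *Cxcl12* DsRed- cortical thymic epithelial cells (cTEC) and 3 of *Cxcl12* DsRed+ cTEC, with 1 library per subset in experiments A, B and C. Both subsets came from untreated mice of 10 weeks of age on a C57BL/6 background. All of them carried the Cxcl12::DsRed genotype, a knock-in in which the red fluorescent protein DsRed reports expression of *Cxcl12*, a chemokine made by cTEC. The cells were sorted as CD45-EpCAM1+UEA1-Ly51+, that is, epithelial cells without the leukocyte protein CD45 or the lectin binding that marks medullary TEC (mTEC), and the subsets differed in DsRed alone. How many mice went into a library is not stated in the labels or methods used here.

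In the family, CD80 and CD86 bind CD28, which costimulates T cells, and CTLA-4, which restrains them. ICOSL binds ICOS, a relative of CD28, while CD274 (PD-L1) and PDCD1LG2 (PD-L2) bind the inhibitory receptor PD-1. CD276 (B7-H3) and VTCN1 (B7-H4) are members whose receptors are less well defined. In the thymus, CD80 and CD86 are best known from mature mTEC and dendritic cells, where they act in negative selection and in the generation of regulatory T cells, and PD-L1 is known from the cortex as well as the medulla.

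Counts assigned to genes ranged from 34574900 to 51042679 per library. Levels are given as CPM, counts relative to the TMM-scaled library size, and every fold change sets *Cxcl12* DsRed- cTEC against *Cxcl12* DsRed+ cTEC. DsRed transcripts stood at 17.6 to 27.8 CPM in DsRed- and at 860 to 2060 CPM in DsRed+ libraries. The summed CPM of 14 cTEC genes ranged from 6520 to 9750 in DsRed- and from 15200 to 27000 in DsRed+ libraries, and *Enpep*, which encodes Ly51, from 71.4 to 73.5 and from 123 to 145 CPM. The libraries of the DsRed- subset were less alike than those of the other. The log2 CPM of the DsRed- library of C correlated across genes at 0.88 and 0.837 with its own subset in A and B, and at 0.913 with the DsRed+ library of A. The DsRed- library of B had the highest levels of the mTEC genes *Aire* (16.5 CPM, against 0 to 4.99 in the other 5 libraries) and *Fezf2* (122 against 4.33 to 35.3), and that of A the highest of the tuft cell channel gene *Trpm5* (415 against 0.206 to 119). In a bulk library, fewer cells with a transcript and less of it per cell cannot be told apart.

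The promoters of 4 members are shown, of *Cd80* and *Vtcn1*, whose counts were almost missing from DsRed+ libraries, of *Icosl*, which stood several-fold apart between the subsets, and of *Cd274*, whose levels were nearly equal in both. Each runs 5′ to 3′ from 250 bases before to 50 bases after the RefSeq start on GRCm38.p6, with motif matches in capitals. They lie at chr16:38458683-38458982 (+ strand), chr3:100825209-100825508 (+), chr10:78069118-78069417 (+) and chr19:29367188-29367487 (+), respectively. The *Cd80* window lies wholly inside the gene as annotated (chr16:38455561-38496335), so the sequence before the first annotated base of *Cd80* was not searched.
Cd80: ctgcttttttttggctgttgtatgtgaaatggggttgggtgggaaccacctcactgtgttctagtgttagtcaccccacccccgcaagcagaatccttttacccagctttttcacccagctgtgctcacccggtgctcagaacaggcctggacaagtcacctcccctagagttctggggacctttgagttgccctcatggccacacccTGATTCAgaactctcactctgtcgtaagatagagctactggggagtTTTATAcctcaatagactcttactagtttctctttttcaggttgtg
Vtcn1: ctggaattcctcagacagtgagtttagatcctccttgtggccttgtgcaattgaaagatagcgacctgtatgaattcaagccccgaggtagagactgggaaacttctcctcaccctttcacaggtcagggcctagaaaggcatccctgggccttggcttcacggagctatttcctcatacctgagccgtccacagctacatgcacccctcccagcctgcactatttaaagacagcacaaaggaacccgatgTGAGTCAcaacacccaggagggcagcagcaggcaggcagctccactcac
Icosl: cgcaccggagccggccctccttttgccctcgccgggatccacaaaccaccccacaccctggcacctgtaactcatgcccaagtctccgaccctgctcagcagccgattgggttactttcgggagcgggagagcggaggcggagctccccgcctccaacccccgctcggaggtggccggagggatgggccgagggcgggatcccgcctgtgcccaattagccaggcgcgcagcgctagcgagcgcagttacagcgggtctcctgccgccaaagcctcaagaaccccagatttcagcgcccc
Cd274: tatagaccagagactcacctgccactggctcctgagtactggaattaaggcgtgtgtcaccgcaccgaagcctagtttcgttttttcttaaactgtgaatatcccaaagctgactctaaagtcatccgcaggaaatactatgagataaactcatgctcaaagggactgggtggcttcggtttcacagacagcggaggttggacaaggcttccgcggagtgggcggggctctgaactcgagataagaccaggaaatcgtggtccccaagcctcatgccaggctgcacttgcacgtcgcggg

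The motifs were searched on both strands. They were the AP-1 motif TGANTCA, the interferon-response motif of a pair of GAAA separated by any 2 bases, the NF-kB site, the octamer ATGCAAAT, the FOXN1 core GACGC and the TATA motif TATAAA. AP-1 is a transcription factor activated by stress and growth signals. Its motif was present in *Cd80* from position -42 and in *Vtcn1* from position 2, counted from 1 at the start site with no position 0, and in 7.93% of the 27025 promoters compared. In *Cd80* the capitals near the start also mark a TATA motif on the opposite strand from position 5, a motif present in 14.2% of promoters. None of these motifs was matched in the windows of *Icosl* and *Cd274*. Of the 2 promoters not shown, that of *Pdcd1lg2* held an NF-kB site from position -244, a match found in 4.35% of promoters, and that of *Cd276* a FOXN1 core from position -21, found in 27.4%. The *Cd276* window (chr9:58554984-58555283, - strand) also lies wholly inside the gene as annotated. The sequence before the first annotated base of *Cd276* was therefore not searched either. No member matched the interferon-response or octamer motif, which 3.49% and 1.75% of promoters held. The windows also differed in composition. The ratio of observed to expected CpG was 0.16 in *Cd80*, 0.24 in *Vtcn1* and 0.19 in *Pdcd1lg2*, and 0.72 in *Cd274*, 0.76 in *Icosl* and 0.85 in *Cd276*. The promoter table held no entry for *Cd86*.

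*Cd274* was the most abundant member in both subsets. To compare genes, CPM was divided by the kilobases of annotated exon. On this scale the family summed to 67.3, 65.5 and 49.5 CPM per kilobase in the DsRed- libraries of A, B and C, and to 55.4, 51.9 and 40.02 in the DsRed+ libraries. The DsRed- library was the higher of the pair within every experiment, although the ranges of the subsets overlapped. *Cd274* made up 67.1%, 62.5% and 71.8% of the sum in the DsRed- libraries and 81.0%, 78.6% and 88.5% in the DsRed+ libraries, so that its share was smaller in every DsRed- library. The share of *Icosl* was 8.52% to 16.3% in DsRed- and 2.45% to 4.91% in DsRed+ libraries. *Cd80* and *Vtcn1* took 0.993% to 6.15% and 1.44% to 6.04% of the family sum in DsRed- libraries, and at most 0.00922% and 0.0246% in DsRed+ libraries. Each DsRed- library had 6 members with at least 10 counts, where the DsRed+ libraries of A, B and C had 4, 5 and 4.

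**Figure D1:**
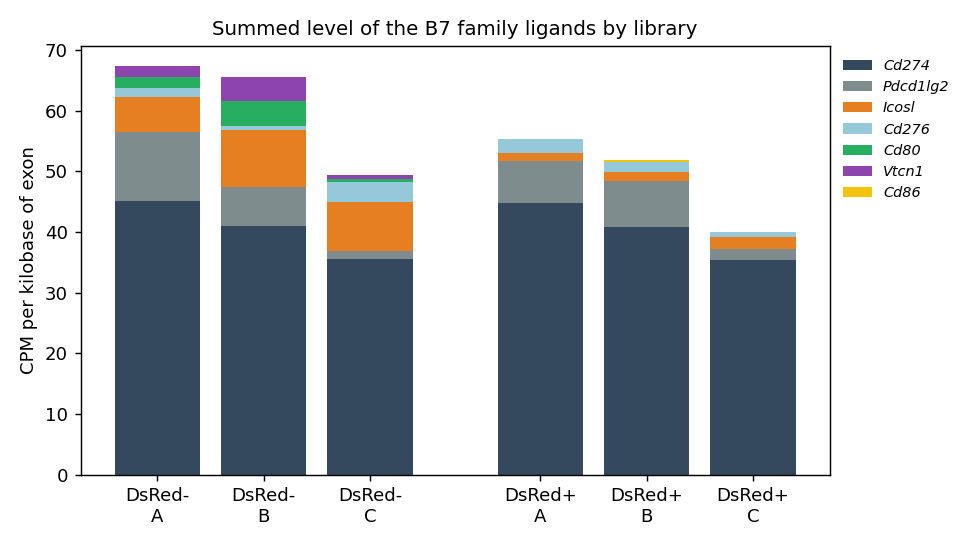
Stacked bars give the summed level of the B7 family ligands in each of the 6 libraries, in CPM per kilobase of exon, with 1 colour per gene. *Cd274* fills 62.5% to 88.5% of every bar, and *Icosl*, *Cd80* and *Vtcn1* form visible bands in the DsRed- libraries.

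The order of the mean levels differed between the subsets. In DsRed- cTEC it ran from *Cd274* (40.6 ± 4.83 CPM per kilobase, SD, n = 3) through *Icosl* (7.77 ± 1.90), *Pdcd1lg2* (6.353 ± 4.999), *Vtcn1* (2.16 ± 1.65), *Cd80* (2.11 ± 1.79) and *Cd276* (1.81 ± 1.35) to *Cd86* (0.00868 ± 0.00753). In DsRed+ cTEC it ran from *Cd274* (40.3 ± 4.71) through *Pdcd1lg2* (5.44 ± 3.18), *Cd276* (1.60 ± 0.738), *Icosl* (1.57 ± 0.338) and *Cd86* (0.1248 ± 0.2029) to *Vtcn1* (0.00328 ± 0.00567) and *Cd80* (0.00170 ± 0.00295). The first gene stood clear of the second in both subsets. Among the other neighbours in the order, only *Cd276* and *Cd86* in DsRed- cTEC and *Icosl* and *Cd86* in DsRed+ cTEC did not overlap between libraries. With the longest transcript as the length, *Cd80* and *Vtcn1* changed places in DsRed- cTEC, as did *Icosl* and *Cd276* in DsRed+ cTEC.

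Among the ligands of CD28 and CTLA-4, *Cd80* (chr16:38455561-38496335, + strand, mm10) was detected almost only in DsRed- cTEC. Its counts were 290, 491 and 74 in the DsRed- libraries of A, B and C and 1, 0 and 0 in the DsRed+ libraries, or 6.70, 14.9 and 1.82 CPM against 0.0189, 0 and 0 CPM. The groups did not overlap, and the DsRed- library of C was the lowest of its subset. The ratio of the summed counts, scaled to library size, was 1022 (95% counting interval 183 to 40420, for counting error only). The fitted log2 fold change was 9.64 (SE 1.66, 95% interval 5.72 to 13.57), and edgeR's quasi-likelihood test gave an adjusted p of 0.0674, above the threshold of 0.05. Within experiments the log2 ratio was 7.86, 10.55 and 7.52. Without the DsRed- library of B the log2 fold change was 8.79, and without that of C it was 10.11, with adjusted p of 0.154 and 0.0600 from the same edgeR test.

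*Cd86* (chr16:36603869-36666081, - strand), its companion in binding CD28, showed no such pattern. It had 2, 0 and 2 counts in the DsRed- libraries and 3, 63 and 0 in the DsRed+ libraries of A, B and C. A single library, DsRed+ of B at 1.31 CPM, held 63 of the 66 DsRed+ counts, and the other 5 libraries stood at 0.0567 CPM or less. The gene was too low to be tested (two-sided exact permutation test over the 6 libraries, p = 0.5, where 0.1 is the smallest that 3 against 3 allow). *Cd86* lies 1789480 bases from *Cd80* on chromosome 16, on the opposite strand.

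*Icosl* (chr10:78069302-78083913, + strand), the ligand of ICOS, was detected in every library of both subsets. It had 1147, 1443 and 1516 counts in the DsRed- libraries and 331, 311 and 352 in the DsRed+ libraries, or 26.5, 43.9 and 37.3 CPM against 6.26, 6.49 and 9.07 CPM. The lowest DsRed- library was above the highest DsRed+ library, and relative to its mean the DsRed- subset spread less than for *Cd80* and *Vtcn1*. The mean was 35.9 ± 8.79 CPM against 7.27 ± 1.56 CPM (SD, n = 3 each). The fitted fold was 4.94 (95% interval 2.68 to 9.11, log2 2.30, SE 0.37), and edgeR's quasi-likelihood test gave an adjusted p of 0.0590. Within experiments A, B and C the log2 ratio was 2.08, 2.76 and 2.04, and leaving out single libraries or experiments gave 2.07 to 2.46.

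*Vtcn1* (chr3:100825459-100896922, + strand), which encodes the inhibitory ligand B7-H4, had a profile close to that of *Cd80*. Its counts were 205, 341 and 76 in DsRed- libraries and 0, 0 and 1 in DsRed+ libraries, or 4.73, 10.4 and 1.87 CPM against 0, 0 and 0.0258 CPM. As for *Cd80*, the DsRed- library of B was the highest and that of C the lowest. The scaled ratio of the summed counts was 744 (95% counting interval 133 to 29420). The fitted log2 fold change was 9.05 (SE 1.70, 95% interval 5.03 to 13.08), and edgeR's quasi-likelihood test gave an adjusted p of 0.0776. Within experiments the log2 ratio was 8.89, 10.02 and 5.71. Leaving out the DsRed- library of B gave 8.29 (edgeR adjusted p = 0.176) and leaving out that of C gave 9.47 (edgeR adjusted p = 0.0861).

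**Figure D2:**
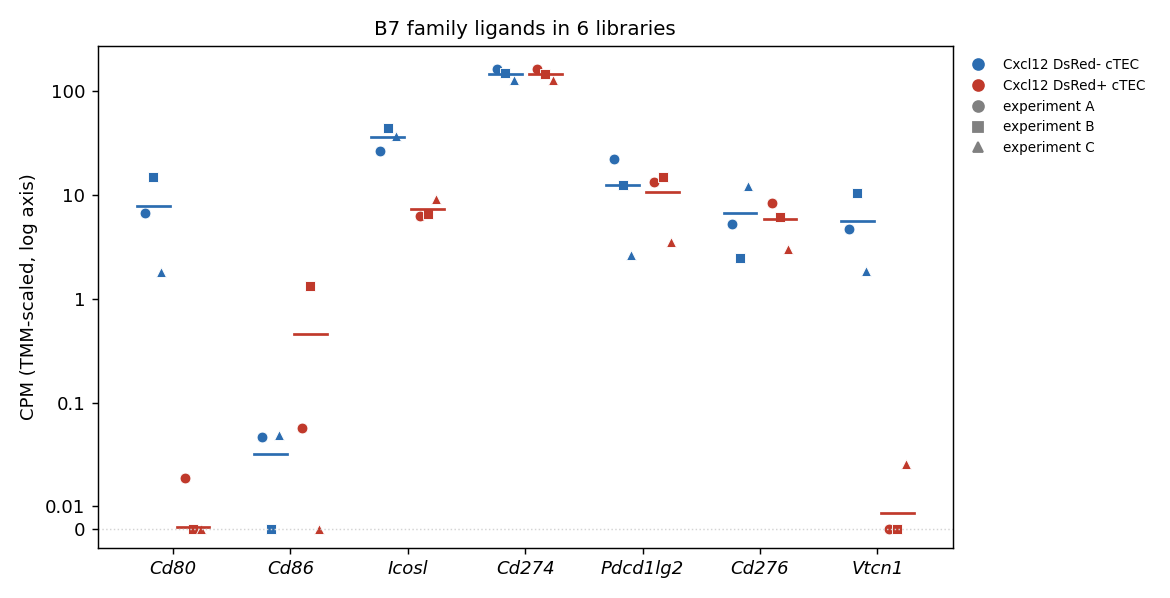
CPM of the 7 B7 family genes with an entry is plotted on a log axis, with values of 0 placed on the dotted line at its foot. Points are single libraries, blue for *Cxcl12* DsRed- and red for *Cxcl12* DsRed+ cTEC, their shapes give the experiment, and bars give the mean of 3. The subsets separate for *Cd80*, *Icosl* and *Vtcn1*, and overlap for the other 4 genes.

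The ligands of PD-1 showed no difference that passed the test. *Cd274* (chr19:29367455-29388095, + strand) had 7085, 4881 and 5234 counts in the DsRed- libraries and 8589, 7077 and 4978 in the DsRed+ libraries. This came to 163.6, 148.5 and 128.7 CPM against 162.3, 147.6 and 128.3 CPM, so that the libraries of an experiment were close and the experiments differed more than the subsets. The mean was 147 ± 17.5 CPM against 146 ± 17.1 CPM (SD, n = 3 each), and the fold had a 95% interval of 0.740 to 1.37 (log2 0.01, SE 0.19, edgeR adjusted p = 0.994). The sign of so small a value depended on the scaling, with a log2 fold change of -0.04 when library totals were used.

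*Pdcd1lg2* (chr19:29410919-29471161, + strand) starts 22824 bases after the end of *Cd274*. Its level was 22.2, 12.5 and 2.63 CPM in the DsRed- libraries of A, B and C and 13.46, 15.04 and 3.53 CPM in the DsRed+ libraries. Both libraries of C were the lowest of their subset, and the subsets overlapped over most of their range. The fold had a wide 95% interval of 0.274 to 4.96 (log2 0.22, SE 0.88, edgeR adjusted p = 0.968), and the log2 ratio was 0.72 in A, -0.27 in B and -0.42 in C. An antisense gene on the opposite strand, A930007I19Rik, shares no exon base with *Pdcd1lg2* and held 321 counts over the 6 libraries.

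*Cd276* (chr9:58524298-58555437, - strand), which encodes B7-H3, stood at 5.288, 2.495 and 12.1 CPM in DsRed- libraries and at 8.39, 6.13 and 3.01 CPM in DsRed+ libraries. The DsRed- library was the lower of the pair in A and B and the higher in C. The log2 ratio was -0.665, -1.294 and 2.001, and the fold had a 95% interval of 0.297 to 4.33 (log2 0.18, SE 0.82, edgeR adjusted p = 0.972). The log2 fold change was -0.05 with the experiment as a block, and -0.59 without the DsRed- library of C. For these 3 genes the intervals cover both directions, and a p above the threshold does not show equal levels.

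Across the family, 6 of the 7 genes with an entry passed the filter on low counts. None of the 6 passed the quasi-likelihood test, which called 97 of 15576 genes (0.623%), 70 of them higher in DsRed- cTEC (0.449%). At an unadjusted p under 0.05, 3 members passed, *Cd80*, *Icosl* and *Vtcn1*, as did 11.8% of all genes tested, 7.02% in the direction of higher levels in DsRed- cTEC. These 3 passed edgeR's likelihood ratio test, in which 3.53% of genes were higher in DsRed- cTEC, with adjusted p of 1.09e-05, 0.000122 and 3.64e-05, and DESeq2, in which 4.68% of genes with an adjusted p were higher, with adjusted p of 1.31e-07, 4.73e-07 and 9.11e-07. With limma voom they did not pass, at adjusted p of 0.257, 0.165 and 0.231. For the same 3 of 6 tested members every DsRed- library was above every DsRed+ library, and the exact permutation p was 0.1 (two-sided) for each, the smallest possible. This was so for 9.73% of all genes tested, and 19.0% did not overlap in either direction. The median log2 fold change of the 6 members was 1.26, beside 0.02 over all genes tested. *Cd80* and *Vtcn1* passed the filter only through the DsRed- libraries, with at most 1 count in a DsRed+ library. Their lack of overlap and their weight in the median therefore follow in part from the filter. *Cd86*, which did not pass it, is left out of both.

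**Figure D3:**
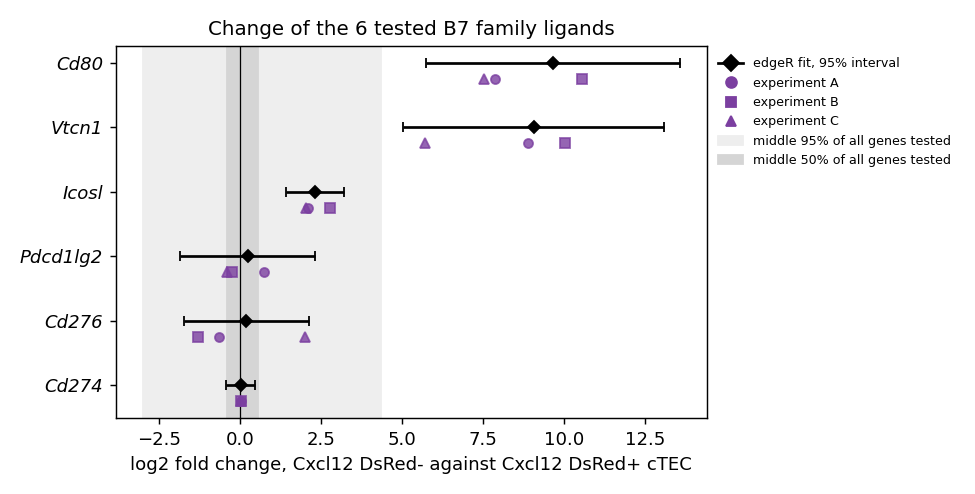
Log2 fold changes of the 6 tested members, *Cxcl12* DsRed- against *Cxcl12* DsRed+ cTEC. Diamonds are edgeR fits with 95% intervals, coloured symbols the ratio within each experiment, and the grey bands hold the middle 50% (-0.40 to 0.54) and 95% (-3.02 to 4.35) of all genes tested. *Cd80* and *Vtcn1* lie beyond the outer band, *Icosl* between the bands, and *Pdcd1lg2*, *Cd276* and *Cd274* within the inner band with intervals across 0.

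Because other cells of the thymus express B7 ligands, the marker levels of those cells are given beside these results. In this and the lists below, passing refers to edgeR's quasi-likelihood test. The likelihood ratio test called more of the genes in some of them. Of 20 dendritic cell and macrophage genes, 12 were tested and none passed, 8 of the 12 had a positive log2 fold change, and their summed CPM was 149 to 925 in DsRed- and 54.1 to 146 in DsRed+ libraries. *Lyz2*, which encodes lysozyme, made up most of the DsRed- sum at 462, 803 and 128 CPM, and the DsRed+ libraries had 19.1, 31.9 and 80.8 CPM. Some other genes of the list were also highest in the DsRed- library of B, as *Cd80* was, and some were not. *Ccr7* stood at 13.8, 26.2 and 0 CPM in DsRed- and 1.85, 5.05 and 2.01 CPM in DsRed+ libraries, and *Cd68* at 8.20, 17.3 and 1.75 CPM against 1.78, 7.26 and 0.361 CPM. *Csf1r* and *Batf3* reached 16.2 and 7.36 CPM in the DsRed- library of B. Of the 12 tested, 4 had negative log2 fold changes. *Zbtb46* was lower in every DsRed- library, at 0.0462, 2.98 and 3.05 CPM against 5.67, 3.88 and 16.9 CPM. *C1qb* was highest in the DsRed+ library of B (10.8 CPM), and *Ptprc* and *Mrc1* in the DsRed- library of A (23.5 and 20.0 CPM). The dendritic cell genes *Xcr1*, *Siglech* and *Cd209a* were at 0 in all DsRed- libraries, and *Itgax*, which encodes CD11c, was at 0, 0 and 0.0492 CPM there. Of 8 B cell genes, 3 were tested and none passed, all 3 with positive log2 fold changes (median 3.82), with sums of 6.91 to 43.4 CPM in DsRed- and 1.78 to 5.05 CPM in DsRed+ libraries. *Cd79b*, part of the B cell receptor, stood at 33.7, 33.2 and 6.91 CPM in DsRed- and 0.265, 1.79 and 1.52 CPM in DsRed+ libraries without overlap (log2 4.37, SE 0.99, edgeR adjusted p = 0.110), *Blk* at 4.96, 10.2 and 0 CPM against 1.06, 0 and 0 CPM, and *Pax5*, a transcription factor gene of B cells, at 0 in all 6.

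Of the epithelial lists, the 10 mTEC genes summed to 7320 to 11300 CPM in DsRed- and 3270 to 13500 CPM in DsRed+ libraries with none passing, where *Ccl21a*, *Krt5* and *Krt14* made up most of each sum. Of the 10, 8 had positive and 2 negative log2 fold changes, *Ccl21a* (-0.18) and *Krt5* (-0.16). Higher in every DsRed- library were 2 of the 10, beside 9.73% of all genes tested, and the rest overlapped. *Cldn4*, a tight junction gene, stood at 293.5, 280.8 and 28.7 CPM in DsRed- and at 1.97, 2.31 and 0.155 CPM in DsRed+ libraries (log2 7.07, SE 1.30, edgeR adjusted p = 0.0722). *Spib*, a transcription factor gene of mature mTEC, stood at 310, 64.6 and 38.8 CPM against 2.74, 6.70 and 2.42 CPM (log2 5.12, SE 0.96, edgeR adjusted p = 0.0776). The 20 tuft cell genes summed to 837 to 4920 CPM in DsRed- and 77.1 to 158 CPM in DsRed+ libraries. All 20 had positive log2 fold changes (median 6.52). Of them, 19 were higher in every DsRed- library and 5 passed the test, beside 9.73% and 0.449% of all genes tested. Endothelial genes summed to 64.7 to 129 CPM in DsRed- and 799 to 6170 CPM in DsRed+ libraries. All 18 had negative log2 fold changes (median -6.22), 16 were lower in every DsRed- library and 3 passed the test. Over all genes tested, 19.0% did not overlap and 0.623% passed, in either direction. The 16 thymocyte genes summed to 72.5 to 132 CPM and 53.3 to 453 CPM, and the 12 fibroblast and pericyte genes to 4100 to 5090 CPM and 2210 to 2310 CPM, with none passing in either list. *Dcn* made up most of the latter sums in DsRed- libraries, at 3469, 3092 and 3118 CPM against 1491, 1512 and 633 CPM. Of these 12 genes, 7 had positive and 5 negative log2 fold changes. The negative ones were *Kcnj8* (-4.80), *Rgs5* (-1.76), *Pdgfrb* (-1.57), *Cspg4* (-1.36) and *Myh11* (-0.72). The part of these cells in the levels of the B7 ligands was not tested.

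The receptors of the ligands are genes of T cells, and *Rgmb*, which encodes a partner of PD-L2, is expressed more widely. Of the 5 receptor genes, 3 were tested and none passed. *Icos* stood at 15.5, 26.8 and 0.910 CPM in DsRed- libraries and at 0.832, 1.69 and 0.0258 CPM in DsRed+ libraries (log2 fold change 4.08, SE 1.63, edgeR adjusted p = 0.393). The subsets overlapped at a single library, DsRed- of C, but within the experiments A, B and C the log2 ratio of *Icos* was 4.21, 3.98 and 4.68. With the experiment as a block its log2 fold change was 4.32 (SE 0.78), with an adjusted p of 0.139 in edgeR's quasi-likelihood and 0.000429 in its likelihood ratio test. Without the block, edgeR's likelihood ratio test gave an adjusted p of 0.124 and DESeq2 one of 0.0383. *Cd28* ranged from 2.07 to 26.4 CPM in DsRed- and from 1.83 to 14.1 CPM in DsRed+ libraries (log2 0.52, edgeR adjusted p = 0.936). *Ctla4* reached 23.7 CPM in the DsRed- library of B and at most 0.271 CPM elsewhere, and *Pdcd1*, which encodes PD-1, 6.45 and 6.49 CPM in the DsRed- and DsRed+ libraries of B and at most 0.139 CPM elsewhere, and neither was tested. *Rgmb* was present in all 6 libraries at 5.77 to 17.1 CPM (log2 -0.01, edgeR adjusted p = 0.997).

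Butyrophilins, the Skint proteins and VISTA, encoded by *Vsir*, are related in structure to the B7 ligands, and Skint1 is known for the selection of a skin-homing γδ T cell subset in the thymus. Of 21 such genes, 12 were tested and none passed the quasi-likelihood test. Of the 12, 11 had a positive log2 fold change, with a median of 2.48 beside 0.02 over all genes. *Skint9*, *Skint3*, *Btnl2* and *Btnl9* passed edgeR's likelihood ratio test, with adjusted p of 0.000129, 0.0178, 0.0304 and 2.67e-06. That test called 880 of all 15576 genes tested, in either direction. The tested *Skint* genes were highest in the DsRed- library of B or A. *Skint9* stood at 17.8, 38.2 and 3.15 CPM in DsRed- and at 0.321, 0.313 and 0.0258 CPM in DsRed+ libraries (log2 6.45, SE 1.35, edgeR adjusted p = 0.0956). *Skint3* stood at 20.4, 30.5 and 1.28 CPM against 0.0189, 0.751 and 0.0258 CPM (log2 6.01, SE 1.86, edgeR adjusted p = 0.242), and *Btnl2* at 9.70, 13.5 and 0.812 CPM against 0.510, 0.0209 and 0.0515 CPM (log2 5.33, SE 1.69, edgeR adjusted p = 0.257). In these 3 of the 12 genes every DsRed- library was above every DsRed+ library, beside 9.73% of all genes tested. In each the DsRed- library of B was the highest and that of C the lowest, the order seen for *Cd80* and *Vtcn1*. *Btnl9* was lower in every DsRed- library, at 0.254, 0 and 0.0492 CPM in DsRed- and 25.1, 10.4 and 142 CPM in DsRed+ libraries (log2 -9.08, SE 1.57, edgeR adjusted p = 0.0674). Over all genes tested, 19.0% did not overlap in either direction. *Skint3* and *Btnl2* passed the filter through the DsRed- libraries, with 1, 36 and 1 and 27, 1 and 2 counts in DsRed+ libraries. *Btnl9* passed it through the DsRed+ libraries, with 11, 0 and 2 counts in DsRed- libraries. Their lack of overlap therefore follows in part from the filter. The *Skint* genes are close copies of one another, which can lower their counts. HTSeq tallied reads aligned to more than 1 place apart, at 5.61% to 9.07% of gene counts. *Vsir* overlapped between subsets (log2 0.13, edgeR adjusted p = 0.970).

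**Figure D4:**
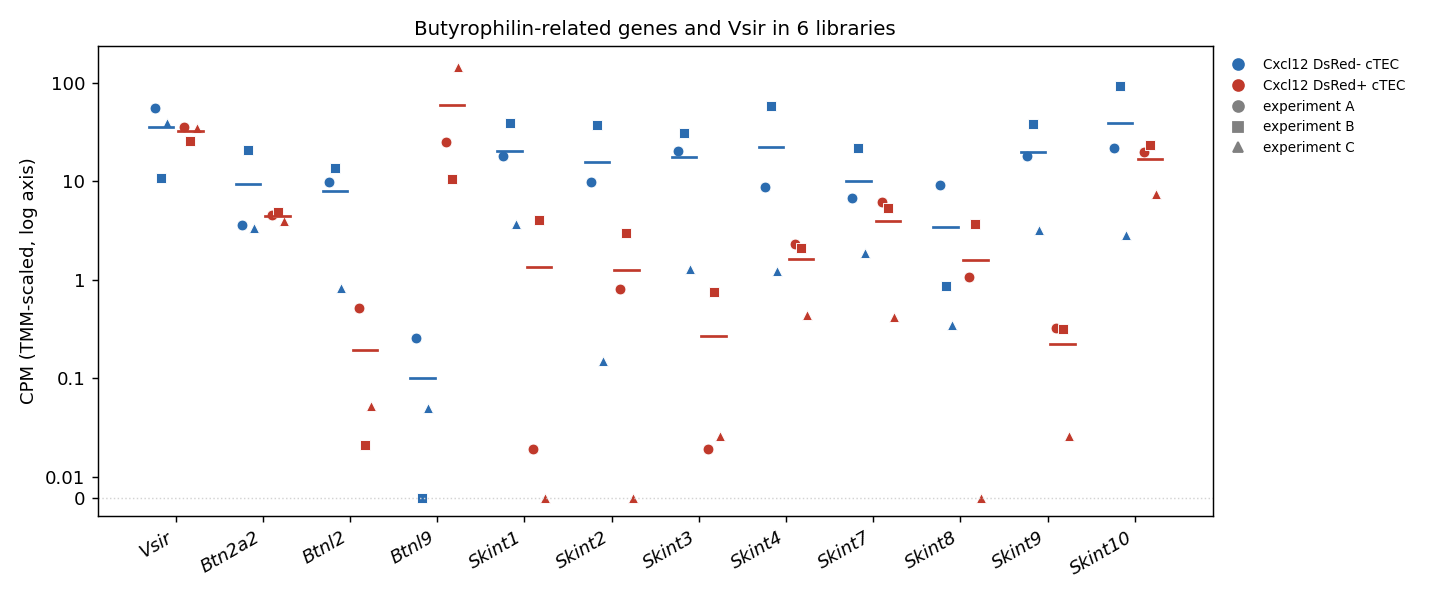
CPM of the 12 tested genes related to the B7 ligands is plotted on a log axis, with values of 0 on the dotted line at its foot. Points are single libraries, blue for *Cxcl12* DsRed- and red for *Cxcl12* DsRed+ cTEC, shapes give the experiment and bars the mean of 3. *Btnl2*, *Skint3* and *Skint9* lie higher in every DsRed- library and *Btnl9* lower.

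Of 12 other surface ligands of T cells, 11 were tested and none passed the quasi-likelihood test, with 6 positive and 5 negative log2 fold changes. *Cd24a*, a surface glycoprotein gene, stood at 930, 508 and 158 CPM in DsRed- libraries and at 150, 126 and 134 CPM in DsRed+ libraries (log2 1.96, SE 0.57, edgeR adjusted p = 0.210). *Cd200*, whose product restrains myeloid cells, was lower in every DsRed- library, at 184, 178 and 197 CPM against 308, 269 and 662 CPM (log2 -1.15, SE 0.35, edgeR adjusted p = 0.241). *Cd47* and *Nectin2* overlapped between subsets, with log2 fold changes of 0.54 and 1.02 (edgeR adjusted p = 0.591 and 0.606).

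Genes that control B7 ligands, through interferon and NF-kB signalling or protein turnover, were 22 in the list. Of these 21 were tested and none passed, and their median log2 fold change was 0.06. CMTM6 protects PD-L1 from degradation. *Cmtm6* stood at 141, 121 and 192 CPM in DsRed- libraries and at 291, 216 and 250 CPM in DsRed+ libraries, without overlap (log2 -0.74, SE 0.23, edgeR adjusted p = 0.256). The RNA of *Cd274* differed by 0.01 on the log2 scale, and PD-L1 protein, on which CMTM6 acts, was not measured here. The receptor genes *Ltbr* (log2 -0.56, SE 0.19) and *Ifngr1* (log2 -0.66, SE 0.27) were also lower in every DsRed- library, with edgeR adjusted p of 0.295 and 0.399, and *Jak2* overlapped (log2 0.83, edgeR adjusted p = 0.584). These were the only 3 of the 21 tested regulators without overlap, *Cmtm6*, *Ltbr* and *Ifngr1*. Of all genes tested, 19.0% did not overlap in either direction, so the list did not stand out. The genes of MHC class I and II, which present the antigen that a B7 signal accompanies, had a median log2 fold change of 0.14, and none of 12 passed. The 4 with the smallest p were *H2-D1* (log2 0.42, edgeR adjusted p = 0.448), *H2-K1* (0.34, 0.612), *H2-DMb1* (0.40, 0.645) and *H2-Eb1* (0.17, 0.903).

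The genes whose log2 CPM was most like that of a member over the 6 libraries were sought among 9518 genes with a mean of at least 10 CPM. With 6 points that share library and depth, Pearson's r is a description. For *Cd80* they were *Zmym4* (r = 0.997), *Tmem54* (0.996) and *Tgm1* (0.996), and 131 genes were above 0.95. For *Vtcn1* they were *Wnt5a* (0.997), *Zmym4* (0.996) and *Ift81* (0.995), with 118 genes above 0.95. *Tgm1* encodes a transglutaminase of the cornified envelope of skin, and *Wnt5a* a secreted signalling protein. For *Icosl* they were *Atp6v0e2* (0.994), *Igf1* (0.994) and *Hp* (0.984), of which *Igf1* encodes a growth factor and *Hp* haptoglobin. *Cd274* was most like *Rsph3b* (0.985), *Scamp3* (0.983) and *Vps53* (0.982). *Pdcd1lg2* was most like *Krt8* (0.984), a keratin gene of cTEC, *Pip5k1a* (0.983) and *Msh6* (0.977), and *Cd276* most like *Pygo2* (0.985), *Rdh12* (0.983) and *Atxn10* (0.983). For *Icosl* 36 genes were above 0.95, and fewer for the members with overlapping subsets, 12 for *Cd274* and 18 each for *Pdcd1lg2* and *Cd276*. A high r does not mean a change of like size. *Zmym4* had means of 34.2 CPM in DsRed- and 15.6 CPM in DsRed+ libraries, where *Cd80* had 7.82 and 0.0063 CPM.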

How the data were processed

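RNA was measured in 6 libraries, 3 of *Cxcl12* DsRed- and 3 of *Cxcl12* DsRed+ cTEC. Libraries were made from polyadenylated RNA by SMARTer Ultra Low Input amplification. The authors used Trimmomatic 0.36 for trimming, STAR 2.7.3a for alignment to mm10 and HTSeq for assignment to genes, and the deposited values are whole-number counts per gene. Neither annotation release nor strand setting is given in the sources used here. The 92 spike-in names, 5 HTSeq summaries (reads in no gene were 5.87% to 9.35% of gene counts) and the DsRed entry stayed out of library sizes and tests. GENCODE vM21 gave 37607 of 39179 genes a symbol.

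Genes were kept by filterByExpr (minimum count 10), scaled by TMM and tested over all 15576 with the quasi-likelihood test of edgeR 4.0.16 (prior count 0.125, Benjamini-Hochberg at 0.05). Alternatives were a likelihood ratio test, a replicate block by experiment, DESeq2 1.42.0, limma 3.58.1 voom, other scalings and filters, removal of marker genes of other cells from the table (which leaves reads of the members from such cells in place), and omission of libraries or experiments. The 9 runs that leave out samples pool the spread over the rest. Both subsets share the labels A, B and C. Deviations from subset means correlated at 0.0296, 0.0892 and 0.081 within experiments and at -0.111 to 0.00632 between them. No pair of libraries was a duplicate (chi-square per degree of freedom 153.6 or more). Counts of amplified reads are not molecules, so counting intervals cover counting error only, and p-values reflect only how far these 6 libraries differ, which may be partly technical.

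The members, gene lists and tests were chosen with earlier results of these data known. All members, all receptors, the 4 genes of smallest p in each related list and the 3 genes most like each member were named, and markers and other genes were named beside a result they bear on, after their values were seen. Promoters came from RefSeq on GRCm38.p6, which held 6 of the 7 members. A motif that was searched and a marker gene that was measured are not reported here.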

Additional observations from a re-analysis of the deposited data

How the results depend on the processing

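No member passed in the main test, and 3 members (*Cd80*, *Icosl*, *Vtcn1*) passed in edgeR's likelihood ratio test, in the same test with the experiment as a block, and in DESeq2. In all other alternatives, including the 9 that left out libraries or experiments, 0 passed, with 3 members at an unadjusted p under 0.05 in each, a threshold that 1361 to 2691 of all genes passed over the settings. In the quasi-likelihood test with a replicate block by experiment, a paired analysis, 73 genes and 0 members passed, and no member's call changed. Over all genes, 97 passed in the main test, 880 in the likelihood ratio test, 1060 in that test with the block, 1081 in DESeq2 (532 adjusted p not available), 4 in limma voom and 168 without a filter. Leaving out samples gave 0 to 139 genes, with 0 without DsRed- A or B, DsRed+ A or B, or the whole of experiment A or B (1361 to 1850 genes at an unadjusted p under 0.05), 1 without DsRed+ C, 35 without experiment C and 139 without DsRed- C. The log2 fold change of *Cd80* ranged over 8.34 to 11.35 when samples were left out, that of *Icosl* over 2.07 to 2.46 and that of *Vtcn1* over 7.81 to 11.36. Signs turned only for the 3 members near 0. *Cd274* was at -0.0419 with library totals, -0.0311 without a filter, -0.0006 with a mean of at least 1 CPM, -0.0281 and -0.0223 without the whole of experiment A or C, and -0.1149 to 0.0909 with single libraries left out. *Pdcd1lg2* was at -0.10 in limma voom, -0.35 without experiment A and -0.54 to 0.70 with samples left out. *Cd276* was at -0.0544 and -0.0541 in the quasi-likelihood and likelihood ratio tests with the block, -0.59 to 0.57 with single libraries left out and -0.93 to 0.66 over all omissions. With the longest transcript as length, 3 of 7 members kept their place in both orders. The 3 members without overlap were the same under TMM, RLE and library totals. *Cd86* was too low for a test at this depth, and without a filter its log2 fold change was -3.75 (SE 2.51, edgeR adjusted p = 0.577).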

Other observations

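The near equality of *Cd274* within each experiment was looked at after its values were seen. The log2 ratio of the DsRed- to the DsRed+ library was 0.011 in A, 0.009 in B and 0.005 in C under TMM scaling, smaller than the counting error of each ratio (SE 0.0232, 0.0268 and 0.0286). The 3 ratios spanned 0.006, against a median span of 0.76 over 3852 tested genes with a mean of at least 50 CPM, and no other gene among these had a span as small. Under RLE size factors the ratios were 0.032, 0.005 and 0.008, and again *Cd274* alone had a span as small as its 0.027. With library totals the ratios were -0.09, -0.074 and 0.053, their span was 0.143, and 103 of 3851 genes, *Cd274* included, had a span as small. The closeness therefore depends on the scaling, while the pair in each experiment stayed within 0.09 on the log2 scale under all 3 scalings.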
